A study of Mus musculus with 2 samples.

Results

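The genes described here encode the proteins of the mitochondrial ribosome, named Mrpl for the large subunit and Mrps for the small subunit. Members were the protein-coding genes of the mouse annotation whose symbol is Mrpl or Mrps followed by a number and at most 1 letter. The rule gave 78 symbols, 49 of the large and 29 of the small subunit, on 17 chromosomes, among 43346 Ensembl genes in the deposited gene tables. Of these, 77 had a row under their own identifier, and Mrpl33 is described separately from its transcript. Total RNA was sequenced from whole lung of embryonic day 15.5 mice of the B6NCrl strain, with no treatment or genetic change named in the labels. The single group held 2 libraries, replicate 1 from the pooled lungs of 78 embryos and replicate 2 from those of 62, with both sexes in each pool. Each pool gave 1 library, so the spread between the libraries holds the spread between pools and any difference in their preparation, and no condition can be compared. Because whole tissue was used, fewer cells of a type and less RNA per cell cannot be told apart.

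The mitochondrial ribosome translates the few proteins encoded by mitochondrial DNA, all of them subunits of the respiratory chain and the ATP synthase. Its ribosomal RNAs come from mitochondrial DNA, while its proteins come from nuclear genes and are imported. Some of the proteins are related to proteins of bacterial ribosomes and others are found in mitochondria but not in bacteria, and each assembled ribosome carries most of them in a single copy.

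The libraries held 40395849.5 and 36601054.5 estimated reads. Levels are given as TPM, the share of transcripts after division by their length, as replicate 1 and then replicate 2, and as mean ± SD (n = 2). At these depths a gene of 1 kb with no read could have had up to 0.113 TPM in replicate 1 and 0.122 TPM in replicate 2 (3 reads, counting error only). All 3 lung epithelium markers (Sftpc, Nkx2-1 and Epcam) were detected in both pools, as were those of mesenchyme, endothelium and red blood cells. Markers of neighbouring organs differed between the pools: the summed level of 3 liver markers was 21.1 and 102 TPM, and that of 3 thymus markers 49.9 and 7.19 TPM. The 3 heart markers went different ways, with 25.8 and 119 TPM for Myl2, 80.3 and 29.9 TPM for Myh6 and 160 and 132 TPM for Tnnt2 (summed 266 and 281 TPM).

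All 77 members with a row were detected, that is, had at least 1 TPM in both libraries, against 60.7% of 21474 protein-coding genes with a row. All 77 also reached 10 TPM in both libraries, against 40.6% of those genes, and 32 reached 100 TPM. The lowest member stood at percentile 44.1 and the highest at percentile 96.4 of detected protein-coding genes, and 75 members lay above the median of those genes. Together the members held 0.748% and 0.772% of all TPM. Their median was 80.1 and 82.3 TPM, 4.11 ± 0.237 times the median of all detected protein-coding genes. Median effective length (defined below) was 881 nt for the members and 2378 nt for those genes. Median estimated reads were 2016 and 1825 for the members, against 1392 and 1230.5. The part of length in this ratio and in the percentiles was not tested.

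The large subunit genes had the higher median and the wider range. Their median was 90.02 TPM in replicate 1 and 92.9 TPM in replicate 2, and that of the small subunit genes was 70.5 and 73.2 TPM. The ratio of the medians was 1.28 and 1.27 (1.27 ± 0.00578, n = 2). That SD covers only the libraries: the genes of both subunits overlapped over most of their range, from 16.0 to 295 TPM in the large subunit (18.4-fold) and from 30.1 to 276 TPM in the small subunit (9.17-fold). The SD of log2 mean TPM was 0.99 over large and 0.76 over small subunit genes, against 2.07 over all detected protein-coding genes. The mean level per gene, a measure that follows the highest members, differed less between subunits, by a ratio of 1.06. The dot plot of all members shows the overlap and the closeness of the libraries.

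**Figure D1:**
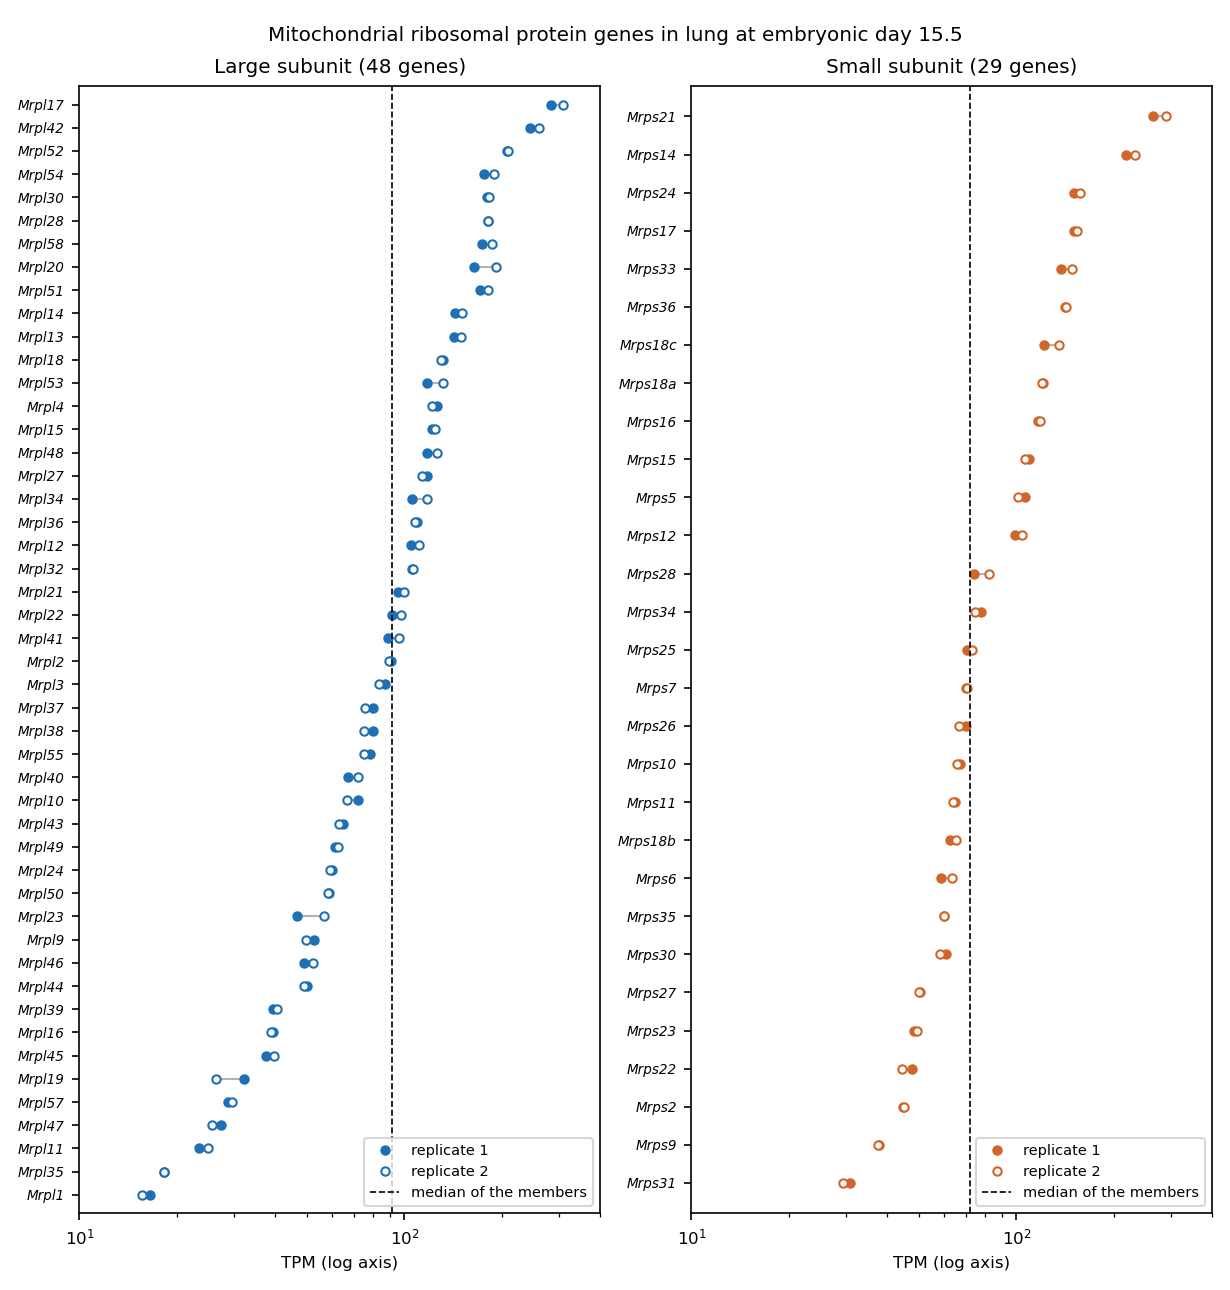
TPM (log axis) of each member of the large (left, 48 genes) and small (right, 29 genes) subunit, ordered by mean. Filled circles are replicate 1, open circles replicate 2, and the dashed line is the median of the members of that subunit (mean of the libraries). The large subunit runs from 16.0 to 295 TPM and the small from 30.1 to 276 TPM.

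In the large subunit, Mrpl17, whose product lies near the opening of the exit tunnel, was highest (ENSMUSG00000030879.9, chromosome 7, 105803206 to 105811099, GRCm38). It had 282 TPM in replicate 1 and 308 TPM in replicate 2. Mrpl42, a mitochondria-specific protein, followed with 243 and 259 TPM. Mrpl52 had 206 and 209 TPM, Mrpl54 had 176 and 188 TPM and Mrpl30 had 179 and 182 TPM. From Mrpl54 down to Mrpl51 (170 and 181 TPM) each of the 6 members had a deposited TPM interval that overlapped that of the next in both libraries, so their order was not resolved.

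In the small subunit the leading gene was Mrps21 (ENSMUSG00000054312.5, chromosome 3, 95862634 to 95871519), with 263 and 288 TPM. Mrps14 had 218 and 231 TPM. Both are relatives of bacterial small subunit proteins. Mrps24 stood at 150 and 156 TPM, Mrps17 at 151 and 153 TPM and Mrps33 at 137 and 148 TPM. Mrpl17 and Mrps21, the highest of each subunit, had intervals that overlapped in both libraries.

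The lowest member was Mrpl1 (ENSMUSG00000029486.9, chromosome 5, 96209493 to 96266727), which encodes the protein of the mobile L1 stalk, with 16.5 and 15.6 TPM. Mrpl35 had 18.2 and 18.2 TPM, and Mrpl11, at the base of the other stalk, had 23.3 and 24.8 TPM. Mrpl47 had 27.3 and 25.5 TPM and Mrpl57 had 28.7 and 29.5 TPM. The lowest small subunit genes lay above most of these. Mrps31 (ENSMUSG00000031533.3, chromosome 8, 22411361 to 22429665) had 30.8 and 29.4 TPM. Mrps9 had 37.7 and 37.4 TPM, Mrps2 had 44.8 and 45.0 TPM, Mrps22 had 47.7 and 44.4 TPM and Mrps23 had 48.4 and 49.6 TPM. Along the whole order of 77 members, 64 of 76 neighbouring pairs had overlapping intervals in both libraries and 6 had separate intervals in both. Mrps21 over Mrpl42 and Mrpl42 over Mrps14 were among the 6.

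Members were next grouped by a class assigned to their proteins. Mrps18c was classed as a relative of bacterial proteins and Mrps18b, of the same gene family, as mitochondria-specific. In the small subunit, the 16 relatives of bacterial proteins had a median of 103 TPM in both libraries, and the 10 mitochondria-specific proteins 61.1 and 62.5 TPM, a ratio of 1.66 ± 0.0249. In the large subunit the 29 relatives of bacterial proteins had 95.4 and 99.8 TPM and the 19 mitochondria-specific proteins 79.95 and 74.99 TPM, a ratio of 1.26 ± 0.0974. Median effective length (defined below) was 756 nt for the relatives and 1107 nt for the specific proteins in the small subunit. In the large subunit it was 881 and 1011 nt. Median estimated reads were 2094 and 1933 against 1656 and 1536 in the small subunit. In the large subunit they ran the other way, 1992 and 1805 against 2111 and 1953. The part of length in these ratios was not tested. The groups overlapped in both subunits: the mitochondria-specific Mrpl42 and Mrpl52 were among the 5 highest large subunit genes, and the lowest of all, Mrpl1, has a bacterial relative.

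By position in the large subunit, the stalk and its base held both a low and a high gene. Mrpl12, the stalk protein that also binds the mitochondrial RNA polymerase, had 105 and 111 TPM, Mrpl10 had 72.0 and 66.5 TPM, and Mrpl11 the 23.3 and 24.8 TPM given above. Their mean levels thus spanned 4.49-fold. The 8 genes of the polypeptide exit region spanned 11.2-fold, from Mrpl47 to Mrpl17, with a median of 48.4 and 52.9 TPM. The 7 genes of the central protuberance, at the top of the subunit, were closer together, from 50.7 (Mrpl46) to 130 TPM (Mrpl18), a 2.57-fold range.

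Several members carry names that do not give their place. The Mrps18 family has 3 genes. Mrps18a, whose protein sits in the large subunit, had 121 and 120 TPM, Mrps18c had 122 and 135 TPM, and Mrps18b had 62.3 and 65.0 TPM. Mrps18b was thus the lowest of the 3 in both libraries. The deposited intervals of Mrps18a and Mrps18c overlapped in replicate 1. In replicate 2 they were separate, 113 to 123 TPM for Mrps18a and 126 to 141 TPM for Mrps18c. Mrps30, also placed in the large subunit, had 60.9 and 58.3 TPM. Mrps36, now known as a component of the 2-oxoglutarate dehydrogenase complex, had 141 and 142 TPM. With Mrps18a and Mrps30 counted in the large subunit and Mrps36 left out, the ratio of the medians was 1.29. Mrpl58, a peptidyl-tRNA hydrolase that was built into the large subunit, had 173 and 186 TPM.

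Mitoribosomal proteins under other symbols had levels in the members' range. Dap3, a small subunit protein that binds GTP, had 117 and 117 TPM, Chchd1 158 and 162 TPM, Aurkaip1 122 and 123 TPM and Ptcd3 62.6 and 61.7 TPM, all of the small subunit. Gadd45gip1, of the large subunit, had 36.7 and 39.4 TPM. All 5 were detected.

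The genes that build and serve the mitochondrial ribosome had lower median TPM than its proteins. All 25 assembly and rRNA-modifying factors were detected, with a median of 24.0 and 24.7 TPM, and the members' median was 3.34 ± 0.00185 times theirs. All 15 translation factors were detected at a median of 25.3 and 25.8 TPM (members 3.18 ± 0.0177 times higher), all 17 mitochondrial aminoacyl-tRNA synthetases at 20.7 and 20.7 TPM (members 3.93 ± 0.0846 times higher), and all 5 genes of mitochondrial transcription at 27.8 and 25.8 TPM. Median effective lengths in these lists, in the same order, were 1516, 1763, 2294 and 1670 nt, against 881 nt for the members. Median estimated reads in replicate 1 were 1040, 1430, 1285 and 1879, against 2016 for the members. In replicate 2 they were 953, 1205, 1269 and 1606, against 1825. The part of length in these ratios was not tested. Some genes stood apart from their lists. Slirp, an RNA-binding partner of Lrpprc, had 240 and 268 TPM, Tufm, the elongation factor that brings tRNAs to the ribosome, had 103 and 101 TPM, and Lars2, the leucyl-tRNA synthetase, was listed at 808 and 753 TPM.

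Other large assemblies were higher. Over all 80 cytosolic ribosomal protein genes with a row, 77 of them detected, the median was 699 and 744 TPM, 8.88 ± 0.228 times that of the members. Over all 84 nuclear genes of the respiratory chain and ATP synthase, 82 of them detected, it was 276 and 291 TPM, 3.49 ± 0.0703 times. Median effective length over detected genes was 576 nt for the cytosolic and 588 nt for the respiratory genes. Their median estimated reads were 10113 and 9990 for the cytosolic and 4785.5 and 4589 for the respiratory genes. The part of length in these ratios was not tested. Among detected genes, the spread of the members (SD of log2 mean TPM 0.91) was near that of the cytosolic ribosomal proteins (0.98) and below that of the respiratory genes (1.41). The respiratory list ran from Cox8b (mean 6.14 TPM), Atp5s (13.6), Cox7a1 (16.4) and Cox6a2 (18.8) up to Atp5b (1929). Between percentiles 10 and 90 the folds were 4.72 for the members, 4.47 for the cytosolic and 8.07 for the respiratory genes. The part of single genes in these spreads was not tested. Of the protein genes of mitochondrial DNA, 12 of 13 were detected, and mt-Nd4l was listed at 0 in replicate 1 and at 54.9 TPM in replicate 2. Its deposited intervals overlapped, from 0.000235 to 64.6 TPM in replicate 1 and from 21.3 to 155 TPM in replicate 2. Its level, and a difference between the pools, were thus not resolved. The rRNA genes, mt-Rnr1 of the small and mt-Rnr2 of the large subunit, had 864 and 918 TPM and 3265 and 3558 TPM. The plot by list sets these levels side by side.

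**Figure D2:**
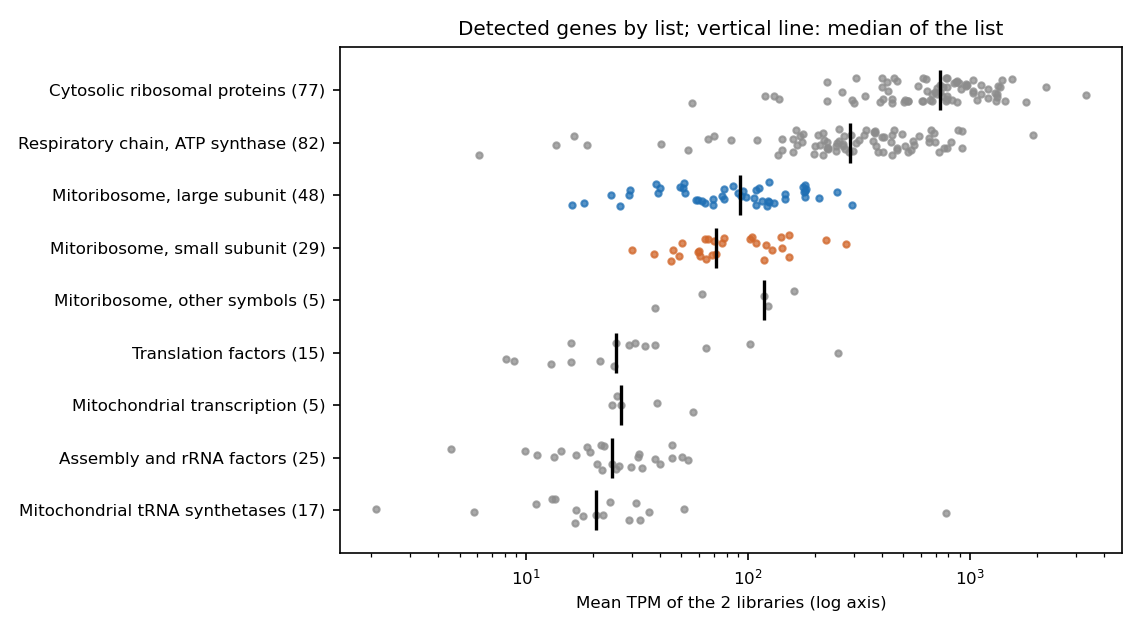
Mean TPM (log axis) of detected nuclear genes by list, 1 point per gene, with the number of genes in brackets and the list's median as a vertical line. The medians of the large (blue) and small (orange) subunit lie below those of the cytosolic ribosomal proteins and the respiratory chain genes and above those of the factors and synthetases, while single genes of the lists overlap.

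The level of a member followed the length of its transcript, and its number of reads did not. Effective length is the number of positions from which a fragment could have come, as given in the deposited tables. Across the 77 members, Spearman's rho of mean TPM with effective length was -0.774, and that of mean estimated reads with effective length was -0.00205. The same held in the large (TPM -0.778, reads -0.0194) and in the small subunit (-0.785 and -0.0345). Medians fell from 162 TPM for the 16 members under 600 nt to 104 TPM for the 27 of 600 to 1000 nt, 61.8 TPM for the 20 of 1000 to 1500 nt and 42.5 TPM for the 14 that were longer.

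Reads per member ranged from 642 to 4319 (mean of the libraries), with an SD of 0.53 on the log2 scale against 0.91 for TPM. Mrpl1, the lowest in TPM, had 1205 and 1117 reads over an effective length of 2757 and 2919 nt, while Mrps21 had 2425 and 2463 reads over 348 and 347 nt. Their 17.2-fold difference in TPM was thus a 2.11-fold difference in reads. Other gene groups gave other values. For the cytosolic ribosomal proteins rho was -0.229 for TPM and 0.355 for reads, for the respiratory genes -0.341 and 0.397, and for the 12955 other detected protein-coding genes -0.297 and 0.112. These correlations are across genes of the same libraries, TPM is computed from reads and length, and genes are not independent replicates. On coding length, which does not depend on where transcripts end, rho was -0.516 for TPM and -0.0792 for reads. Coding length itself rose with effective length (rho 0.598), by which TPM is divided, so this is not a separate check. The ratio of the subunit medians was 1.23 for reads per kilobase of coding sequence, whose median length was 590 nt in the large and 588 nt in the small subunit.

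**Figure D3:**
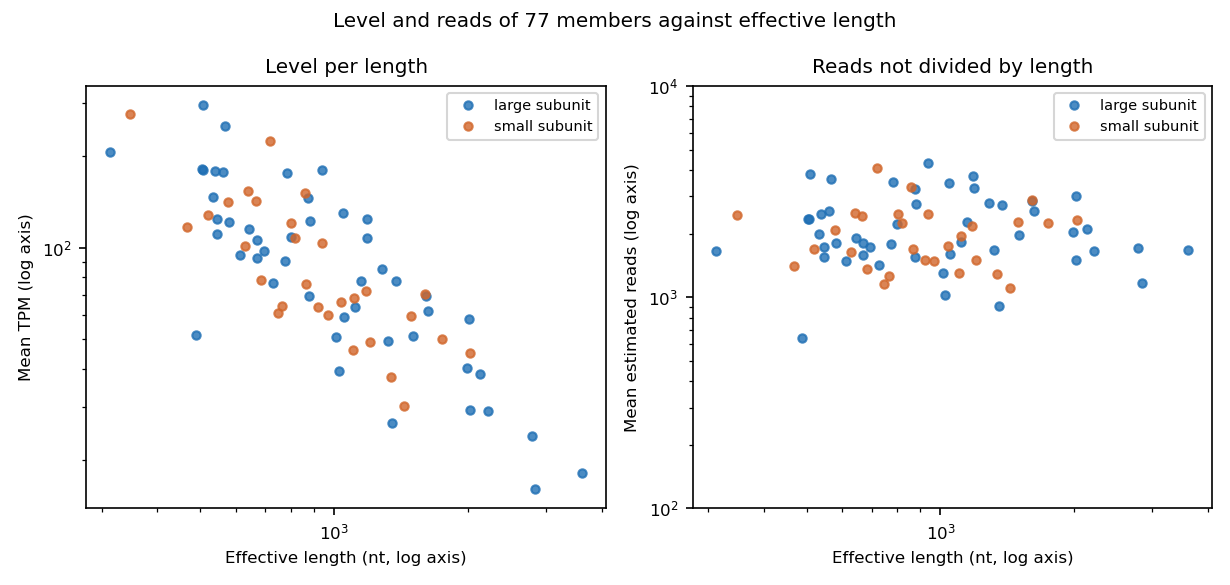
Mean TPM (left) and mean estimated reads (right) of the 77 members against effective length (nt), all axes logarithmic. TPM falls with length in both subunits, and reads lie between 642 and 4319 at every length. Points are genes, means of the libraries.

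Some members have near-identical sequence in other annotated genes. A search of the coding sequences against the annotated transcripts found 45 copies of 27 members at 90% identity or more over at least 50% of the coding sequence, counting genes that overlap the member at its own locus. Only members were searched, so these counts do not set them apart from other genes. Of these copies 33 had a row, and 29 of the 33 were under 1 TPM. The highest copy was that of Mrpl23, a protein near the exit tunnel. Its processed pseudogene Mrpl23-ps1 on chromosome 2 (74591330 to 74591909) was listed at 147 and 143 TPM, above Mrpl23 itself on chromosome 7 (142532686 to 142540747) at 46.8 and 56.8 TPM. The coding sequence of the transcript Mrpl23-201, 438 nt, was found in Mrpl23-ps1 with 0 mismatches and 0 gaps, and 540 nt of the transcripts matched in all. The first 120 coding bases, identical in both, are printed to show what a read would have to tell apart, with the start codon in capitals:
Mrpl23 and Mrpl23-ps1: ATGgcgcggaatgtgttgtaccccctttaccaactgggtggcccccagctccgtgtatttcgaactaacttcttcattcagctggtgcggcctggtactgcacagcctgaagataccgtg
The pseudogene held 75.8% and 71.6% of the TPM listed for both loci. Their summed level was 193 and 200 TPM (197 ± 4.64), which would place Mrpl23 at rank 6 rather than rank 59 of the 77. Which of the loci the reads came from was not tested.

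The other copies at 1 TPM or more had lower levels than their members. Gm5776, a processed pseudogene on chromosome 7 with 1 mismatch to the 318 nt coding sequence of Mrps33, was listed at 17.2 and 22.1 TPM, against 137 and 148 TPM for Mrps33. Gm42688, a protein-coding gene model that contains the whole coding sequence of Mrpl53 on the same strand, had 5.05 and 4.15 TPM, against 118 and 132 TPM for Mrpl53. Twnk, the mitochondrial DNA helicase, shares 507 nt of exon with Mrpl43 on the opposite strand and had 16.6 and 14.3 TPM, against 64.9 and 63.0 TPM for Mrpl43. Of the 77 members, 32 shared exon bases with some other gene in the annotation, 28 of these with a gene on the opposite strand. No share over other genes stands beside this count, so it does not set the members apart from them. The longest was the 4590 nt that Mrps25 (70.5 and 73.2 TPM) shares with Nr2c2 (19.3 and 17.5 TPM). Whether strand was used in counting is not given in the sources used here, so reads of such stretches may be split between both genes.

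Mrpl33 had no row under its present identifier. Its transcript was listed within a gene row that has since been retired, at 224 and 233 TPM (228 ± 6.15), which was 96.3% and 96.9% of that row. With it the large subunit has 49 genes and the ratio of the subunit medians becomes 1.30.

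The libraries gave nearly the same levels for the members. Pearson's r of log2 TPM across the 77 members was 0.996 and Spearman's rho 0.995, as a description across genes. A gene counted as apart between the libraries when its mean was at least 5 TPM, its TPM scaled by TMM (a normalization that sets most genes equal) differed 2-fold or more and its deposited intervals, shifted by the same scaling, did not overlap. This was the case for 0 of 77 members, against 0.355% of 11261 genes tested. Of the other lists of mitochondrial expression, 0 of 82 genes were apart, where Mars2 (mean 2.1 TPM) and Ybey (4.6 TPM) lay under the minimum and could not be called. Because the share over all genes is so low, a count of 0 in sets of these sizes does not tell them from other genes.

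Smaller differences ran mostly one way. After TMM scaling the median log2 ratio of replicate 2 over replicate 1 was 0.09 over the members (0.08 in the large and 0.09 in the small subunit), and 72 of 77 were higher in replicate 2. Over all detected genes the median was 0.01 and 52.0% were higher in replicate 2. On the TPM as deposited, where the median of all detected genes lay at -0.06, the members' median was 0.02 and 45 of 77 were higher in replicate 2, against 29.5% of all detected genes. With no minimum fold, 20 of 77 members had separate intervals after scaling, all 20 higher in replicate 2, against 9.21% of genes higher in replicate 2 and 4.32% higher in replicate 1 (13.5% in either direction). An exact binomial test of the reads, adjusted by Benjamini-Hochberg over all 11261 genes, called 26 of 77, all higher in replicate 2, against 14.4% of genes higher in replicate 2 and 8.38% in replicate 1 (22.8% in either direction). That test compares these libraries by counting error alone and not any condition.

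The ratio was higher in shorter members. Members under 600 nt had a median log2 ratio of 0.17, with 16 of 16 higher in replicate 2. Those of 600 to 1000 nt had 0.12 (27 of 27), those of 1000 to 1500 nt 0.04 (18 of 20) and longer ones 0.06 (11 of 14). Other protein-coding genes between 10 and 300 TPM had medians of 0.13, 0.07, 0.03 and 0.00 in the same length classes. In both sets the classes under 1000 nt had the higher medians, while in the longest class the members' median was above that of the class before it and the other genes' median was below. The median ratio was 0.15 for the cytosolic ribosomal proteins (77 of 77 higher in replicate 2) and 0.11 for the respiratory genes (77 of 82). The part of length, and of the neighbouring organs' markers, in the members' ratio was not tested.

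**Figure D4:**
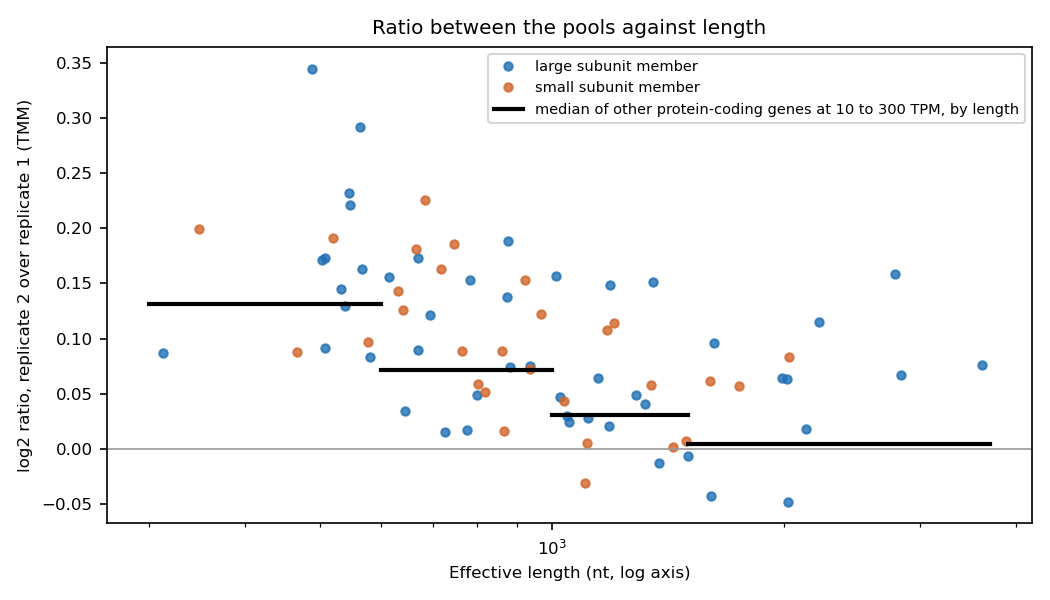
TMM-scaled log2 ratio of estimated reads, replicate 2 over replicate 1, against effective length (nt, log axis) for each member. Black bars are medians of other protein-coding genes at 10 to 300 TPM in 4 length classes. Most members lie above 0, and both members and other genes are higher at short lengths.

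The largest ratio was that of Mrpl23, at 46.8 and 56.8 TPM, a log2 ratio of reads of 0.34. The sum of Mrpl23 and Mrpl23-ps1 was 193 and 200 TPM. Mrpl20 followed with 164 and 192 TPM (0.29). Mrpl53 had 118 and 132 TPM (0.23), Mrps28 had 74.0 and 82.3 TPM (0.23) and Mrpl34 had 106 and 117 TPM (0.22). At the other end were Mrpl19 with -0.05, Mrpl10 with -0.04, Mrps22 with -0.03 and Mrpl37 and Mrpl9 with -0.01 each. Of these Mrpl37 had 80.1 and 75.8 TPM and Mrpl9 52.6 and 49.9 TPM. Mrpl19 differed more in TPM, with 32.2 and 26.3, since its effective length was estimated at 1899 nt in replicate 1 and 2144 nt in replicate 2. On scaled TPM its log2 ratio was -0.22.

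The effective length of a gene follows the shares of its transcripts. The transcript tables list 275 transcripts for the 77 members, and 19 members have a single one. Types of transcript are those of the later annotation release, while the counting used an earlier release. Protein-coding transcripts held a median of 95.6% and 95.9% of a member's TPM, against 98.5% and 98.6% over 12955 other detected protein-coding genes. In 14 members (18.2%) they held under 50% in both libraries, against 7.06% of the other genes.

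Some members were led by a transcript of another type in replicate 1. A retained intron transcript led in 4 small subunit genes (Mrps5, Mrps24, Mrps25 and Mrps26) and in 0 of the large subunit. In Mrps5 that transcript held only 27.4% and 32.2%. Without leading, retained intron transcripts together held 43.1% and 43.9% of Mrpl51, 42.5% and 48.2% of Mrpl58 and 37.7% and 33.0% of Mrpl38. A processed transcript, a type with no annotated coding sequence, led in 6 large subunit genes (Mrpl15, Mrpl19, Mrpl20, Mrpl23, Mrpl47 and Mrpl51) and in 0 of the small subunit. A transcript annotated for nonsense-mediated decay led in 6 genes, 4 large and 2 small. No test over these counts was made.

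The shares were close in both libraries. Retained intron transcripts held 95.4% and 95.2% of the level of Mrps26, 87.1% and 87.4% of Mrps25, and 79.5% and 81.1% of Mrps24. Mrps14, the second of the small subunit in TPM, had 92.2% and 91.6% in the transcript Mrps14-201, annotated for decay. The single counted transcript of Mrpl32 (105 and 107 TPM) is annotated that way too. Mrpl51, at 170 and 181 TPM, had 7.82% and 7.65% in protein-coding transcripts. For these genes the gene TPM is thus not the level of the coding transcripts as annotated. The leading transcript differed between libraries in 2 members. In Mrpl48 (118 and 126 TPM) it was Mrpl48-202 with 38.8% in replicate 1 and Mrpl48-209 with 41.7% in replicate 2. In Mrps10 (66.9 and 65.5 TPM) it was Mrps10-203 with 43.7% and Mrps10-204 with 51.6%.

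**Figure D5:**
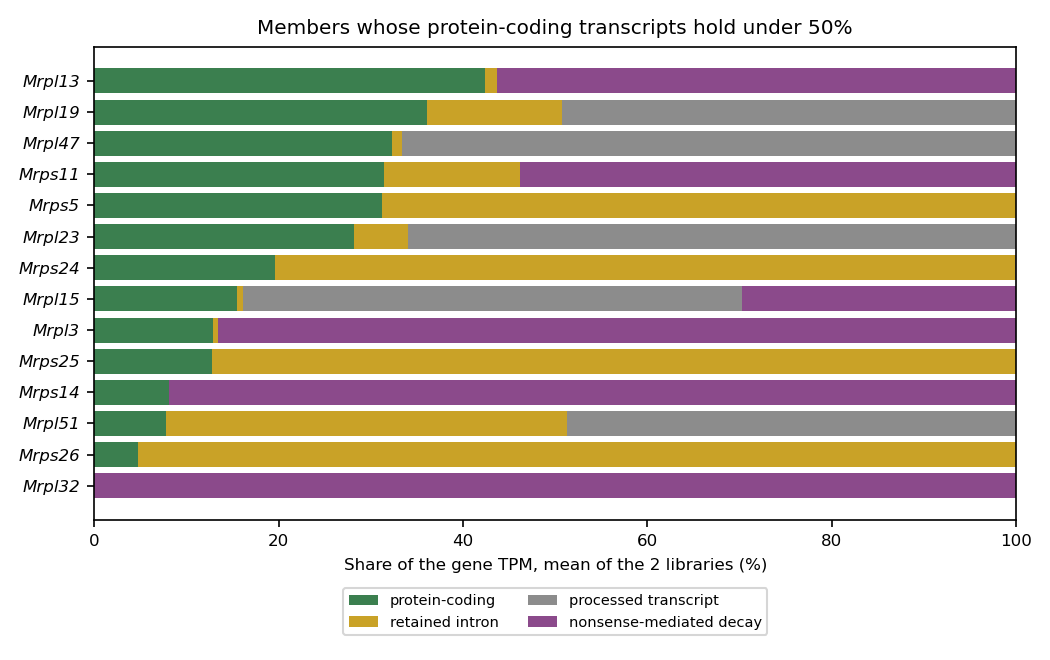
Share of the gene TPM (%, mean of the libraries) by annotated transcript type for the 14 members whose protein-coding transcripts held under 50% in both libraries. The small subunit genes Mrps26, Mrps25, Mrps24 and Mrps5 are mostly retained intron, and Mrpl32 and Mrps14 mostly of the decay type.

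The members' genes often started close to the start of a gene on the opposite strand. A protein-coding gene on the opposite strand started within 1000 nt of the start of 33 of 77 members (42.9%), against 15.5% of the 12955 other detected protein-coding genes, and in 21 of the 33 within 200 nt. These counts include genes that overlap at their starts, such as Mrpl47 and Ndufb5, which share 616 nt of exon. Mrps11 and Mrpl46 each count as the partner of the other. Of the 33 partners 31 were detected, and 26 were lower than their member. Partners that were higher include Fau, a gene of a cytosolic ribosomal protein, next to Mrpl49 (485 and 511 TPM against 61.3 and 62.4), and Ndufb5, a complex I subunit, next to Mrpl47 (257 and 242 TPM against 27.3 and 25.5). Other partners work in mitochondria as well: Ndufs6 next to Mrpl36 had 317 and 348 TPM, and Sars2, the mitochondrial seryl-tRNA synthetase, next to Mrps12, the protein of the decoding centre, had 20.7 and 20.7 TPM against 99.2 and 104.

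A single pair joined 2 members, Mrps11 of the small and Mrpl46 of the large subunit. Mrps11 (chromosome 7, 78783119 to 78792989) had 64.9 and 64.0 TPM and Mrpl46 (chromosome 7, 78775236 to 78783531) had 49.3 and 52.2 TPM. Mrps11 was the higher of the pair in both libraries. In GENCODE the genes share 173 nt of exon at their starts. In RefSeq their starts lie 42 nt apart and their promoter windows, from 250 bases before to 50 bases after a start, share 141 nt.

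Promoter windows of RefSeq (GRCm38.p6, 300 nt) were given for 69 of the 78 members, 75 windows in all. They were searched on both strands for the letters of 5 motifs, with 0 windows in which matches overlapped. The ETS core CCGGAAG was in 34.7% of members' windows, against 16.6% of the windows of detected protein-coding genes and 8.86% of all windows in the table. The YY1 core AAGATGGC was in 16.0%, against 4.13% and 2.75%. The NRF1 core CGCATGCG was in 9.33% (7 windows), against 3.66% and 1.87%. The CRE TGACGTCA was in 2.67% (2.95% and 1.79%) and the E-box CACGTG in 9.33% (9.62% and 7.15%). The letters of ETS were in 15 of 48 large and 11 of 27 small subunit windows, and 3 members had both ETS and YY1 letters. These matches are descriptions of sequence and no sites.

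The windows of the member pair, of the highest and lowest member, and of Mrps12, which holds both leading motifs, are printed with motif letters in capitals. Positions are counted from the RefSeq start.
Mrps11, chr7:78782881-78783180, plus strand: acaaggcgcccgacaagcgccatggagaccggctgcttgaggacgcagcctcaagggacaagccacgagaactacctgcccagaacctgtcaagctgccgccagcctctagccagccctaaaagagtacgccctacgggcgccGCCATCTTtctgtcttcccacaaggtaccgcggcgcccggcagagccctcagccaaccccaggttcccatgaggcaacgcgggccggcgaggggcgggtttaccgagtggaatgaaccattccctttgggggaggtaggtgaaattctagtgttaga
Mrpl46, chr7:78783040-78783339, minus strand: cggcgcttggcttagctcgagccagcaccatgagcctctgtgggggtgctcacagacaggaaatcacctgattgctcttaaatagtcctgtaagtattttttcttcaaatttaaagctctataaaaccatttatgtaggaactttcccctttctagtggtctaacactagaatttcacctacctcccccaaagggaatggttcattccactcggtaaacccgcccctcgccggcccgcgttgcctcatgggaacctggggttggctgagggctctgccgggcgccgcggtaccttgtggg
Mrpl17, chr7:105811038-105811337, minus strand: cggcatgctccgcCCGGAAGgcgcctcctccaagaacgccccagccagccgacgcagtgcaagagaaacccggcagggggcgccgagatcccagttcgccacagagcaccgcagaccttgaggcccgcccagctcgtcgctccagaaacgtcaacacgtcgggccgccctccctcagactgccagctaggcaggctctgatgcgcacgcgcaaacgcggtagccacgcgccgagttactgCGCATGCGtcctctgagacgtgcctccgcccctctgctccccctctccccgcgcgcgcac
Mrpl1, chr5:96209865-96210164, plus strand: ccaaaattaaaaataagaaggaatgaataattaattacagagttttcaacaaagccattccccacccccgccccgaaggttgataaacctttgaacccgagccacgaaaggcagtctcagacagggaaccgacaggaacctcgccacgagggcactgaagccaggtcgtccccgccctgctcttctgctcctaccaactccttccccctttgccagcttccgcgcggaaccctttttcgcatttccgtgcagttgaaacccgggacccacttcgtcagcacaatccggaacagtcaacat
Mrps12, chr7:28741772-28742071, minus strand: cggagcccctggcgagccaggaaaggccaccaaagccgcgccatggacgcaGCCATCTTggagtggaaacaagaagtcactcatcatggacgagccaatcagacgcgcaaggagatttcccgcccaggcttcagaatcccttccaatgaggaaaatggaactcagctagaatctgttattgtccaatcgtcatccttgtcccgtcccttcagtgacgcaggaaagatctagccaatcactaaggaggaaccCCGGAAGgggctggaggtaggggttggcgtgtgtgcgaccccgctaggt
In Mrps11 the YY1 letters begin at -107. Mrpl17 has ETS letters at -237 and NRF1 letters at -10. Mrps12 has YY1 letters at -199 and ETS letters at 2, just inside the transcript. The YY1 letters of both genes lie on the other strand and read GCCATCTT here. The windows of Mrpl46 and of the lowest member, Mrpl1, hold none of the 5 motifs as spelled. Both windows lie wholly inside the gene as bounded in GENCODE, where Mrpl1 starts at 96209493 and Mrpl46 at 78783531. The bases before those GENCODE starts were thus not searched.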

How the data were processed

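For each of 2 libraries of whole lung RNA the authors deposited a gene table and a transcript table on mm10 with GENCODE M4, per the deposited text that describes the files. The deposited expected counts, per the file headers, estimate how many reads each feature received. The deposited TPM values share a fixed total over all features, spike-ins included, and the deposited percent is the share of a gene's TPM held by a transcript. The deposited interval bounds (treated as a score, since their level is not stated) lie around the posterior mean TPM, and deposited lengths are in nucleotides. Which counting program and strand setting were used is not given in the sources used here. RNA molecules over 200 nt were kept and 10 ng entered each library, per the labels.

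Names, types and positions came from GENCODE M21 on the same build, matched by identifier for 98.0% of Ensembl rows. Counts were rounded and scaled by TMM (edgeR 4.0.16), with DESeq2 1.42.0 size factors as an alternative, after a check on simulated data; TMM raised log2 TPM of replicate 2 by 0.07. Intervals were shifted with the TPM. The binomial test and correlations used scipy 1.17.1, and copies were aligned as coding sequences against annotated transcripts. RefSeq gave no window here for Mrpl4, Mrpl13, Mrpl15, Mrpl19, Mrpl38, Mrpl54, Mrps28, Mrps34 and Mrps35. Values per library are printed for the 5 highest and 5 lowest genes of each subunit, the 5 largest ratios each way, genes whose names differ from their place, stalk genes, member pairs and genes whose leading transcript changed. Members, lists and motifs were chosen with earlier results of these data known, and the NRF1 motif was shortened to its central letters after a first search. Mrpl23, the near copies, Mrpl33, exon overlaps and the other examples were named after their values were seen. Alternatives were other scalings, posterior means, other minimums, other groupings and each library alone.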

Additional observations from a re-analysis of the deposited data

How the results depend on the processing

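All 77 members stayed detected with posterior mean TPM, in each library alone and at minimums of 5 or 10 TPM. The ratio of the large to the small subunit median, 1.27, ran from 1.27 to 1.28 in each library alone. It was 1.29 with subunits taken from structures, 1.06 for the mean level per gene, 1.30 for members of 500 nt or more, and, in alternatives chosen after seeing the data, 1.30 with Mrpl33, 1.31 with Mrpl23 and Mrpl23-ps1 summed and 1.23 for reads per kilobase of coding sequence. Thus each of these settings, all of which divide reads by a length, kept the large subunit higher, and the mean per gene moved it most. Median estimated reads, not divided by length, were not higher in the large subunit. They were 2004 and 1824 there and 2055 and 1825 in the small subunit. The median log2 ratio between the libraries, 0.09, was 0.016 on deposited TPM, where the cause is the scaling itself. The count of members apart, 0, rose to 20 with no minimum fold, and to 26 by the binomial test, which has no minimum fold and tests reads in place of intervals, and was 0 in the other settings. Genes of the other lists detected ranged from 81 to 82 and members with under 50% in protein-coding transcripts from 14 to 16 in each library alone. No paired analysis was possible because the libraries form a single group. With 2 pools of 1 library each, the spread between pools rests on 1 degree of freedom.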
